A study of Mus musculus with 12 samples.

Results

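The actin-regulated program of serum response factor (SRF) was followed through 33 genes of embryonic mouse spinal motor neurons, out of 30740 gene symbols measured. They comprise Srf, its coactivators Mkl1 and Mkl2 (also named Mrtfa and Mrtfb), and 30 genes of the actin cytoskeleton listed as their targets, each taken as the table row of that name. The list was chosen with earlier results of these data known. The RNA was polyadenylated RNA of the ventral spinal cord of CB6F1/J embryos at E12.5 carrying an Hb9:GFP reporter, in which promoter sequence of the motor neuron gene Hb9 (Mnx1) drives green fluorescent protein. Tissue of Arhgap35 (p190) knockout embryos or of control littermates was dissociated with papain and sorted by fluorescence. There were 5 control and 5 knockout GFP-positive libraries, and 1 control and 1 knockout GFP-negative library. The titles call every control wild type, whereas the protocol says that control littermates were wild type or p190+/-, so some control RNA may carry 1 knockout allele. How many embryos stand behind a library is not stated in the labels. Nor do they tie replicates to separate litters, and every p-value given here measures only how far these libraries differ among themselves.

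SRF binds DNA at a short AT-rich element, the CArG box, and works with either of 2 kinds of partner. Myocardin-related transcription factors (MRTFs, here Mkl1 and Mkl2) are held back by monomeric actin and released when actin polymerises, which couples genes of actin, its crosslinkers and its contractile machinery to the state of the cytoskeleton, while the ternary complex factors (TCFs) couple immediate early genes to growth factor signalling. Arhgap35 encodes p190A, a GTPase-activating protein that acts on the actin cytoskeleton. In neurons SRF and MRTFs are known for roles in axon outgrowth, guidance and migration. The comparisons therefore address whether these genes differ between knockout and control motor neurons, and how motor neurons differ in them from the other cells of the ventral cord.

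A CArG box stood in the RefSeq promoter window (assembly GRCm38.p6) of 10 of the 29 genes that had one, 34.5%, against 1.81% of all 27025 genes with a window. The window runs from upstream of the transcription start to a short way past it, the box was searched by its consensus on both strands, and Actb, Actg2, Csrp2 and Tagln had no entry. The 10 genes were Srf, Actg1, Acta1, Cnn2, Myl9, Vcl, Lima1, Fhl1, Fhl2 and Filip1l. With 1 mismatch allowed the counts were 17 of 29 genes, 58.6%, against 23.8% of all genes. Shown here are the stretch of Srf itself, which holds a pair of boxes, and those of 6 holders whose RNA differed between the sorted populations, so that the element can be seen beside the values given further on. Each stretch reads 5′ to 3′ on the strand of its gene, with the CArG boxes in capitals.
Srf, chr17:46556190-46556279, minus strand, boxes beginning 82 and 62 bases before the start, in an intron of Gm26904: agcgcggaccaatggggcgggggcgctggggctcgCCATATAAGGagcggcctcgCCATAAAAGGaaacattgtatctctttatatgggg
Lima1, chr15:99820162-99820231, minus strand, 47 bases before the start, in an intron of Lima1 and Gm17057: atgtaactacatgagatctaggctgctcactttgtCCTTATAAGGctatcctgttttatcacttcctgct
Acta1, chr8:123894814-123894883, minus strand, 73 bases before the start, in an intron of Gm20388: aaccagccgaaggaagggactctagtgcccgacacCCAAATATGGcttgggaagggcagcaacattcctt
Cnn2, chr10:79988509-79988578, plus strand, 56 bases before the start, outside annotated genes: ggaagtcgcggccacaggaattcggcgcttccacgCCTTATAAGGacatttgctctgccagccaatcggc
Fhl2, chr1:43163962-43164027, minus strand, 31 bases before a start inside the gene, in an intron of Fhl2: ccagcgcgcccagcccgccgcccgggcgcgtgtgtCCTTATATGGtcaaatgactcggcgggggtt
Fhl1, chrX:56779546-56779615, plus strand, 102 bases before a start inside the gene, in an intron of Fhl1: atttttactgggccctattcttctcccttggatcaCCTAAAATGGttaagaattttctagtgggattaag
Actg1, chr11:120348551-120348620, minus strand, 90 bases before the start, outside annotated genes: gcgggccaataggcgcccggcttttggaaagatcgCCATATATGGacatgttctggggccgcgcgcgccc
The outer CC and GG are fixed by the search, and Lima1 and Cnn2 hold the same box. As with Fhl1 and Fhl2, the start used for Lima1 lies inside the gene, and Lima1 runs from chr15:99778470 to 99875456. Fhl2 has a further box, 96 bases before another start and in an exon of Fhl2, which is not shown. A match describes the letters in the window and no binding was measured.

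The libraries held 23.7 to 33.8 M estimated counts, of which the 33 genes took 0.720% to 0.839%. The label calls all 12 samples motor neurons, but motor neuron markers summed to 1992 to 2574 CPM (counts-per-million) in the GFP-positive libraries and to 85.8 and 81.2 CPM in the GFP-negative ones, with all 10 markers called higher in GFP-positive cells (edgeR). Progenitor markers, led by Vim, Nes and Fabp7, ran the other way at 416 to 573 against 2327 and 2577 CPM, and interneuron markers were at 71.6 to 280.0 against 1077 and 982 CPM. The GFP-negative libraries are therefore a mixture of other cells and are called GFP-negative here. Arhgap35 was 135.5 to 202 CPM in control and 88.2 to 105.6 CPM in knockout GFP-positive libraries, a log2 fold change of -0.83 (SE 0.0996, n = 5 and 5, edgeR adjusted p = 0.024), and lay at 155 CPM (control) and 96.3 CPM (knockout) in GFP-negative cells. With the replicate number as a block that adjusted p became 0.162, and it also missed the threshold when any 1 library other than the fifth control was left out (0.0562 to 0.141).

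The 33 genes spanned from among the most abundant transcripts of the cells to the floor of detection. Per length, Actg1, cytoplasmic gamma-actin, led at 5740 ± 123 TPM (transcripts-per-million, SD, n = 10 GFP-positive libraries), at rank 5 of all symbols, and Actb, cytoplasmic beta-actin, followed at 2406 ± 76.3 TPM, at rank 28. The next were Cnn3, acidic calponin, at 310 ± 16.9 TPM, the crosslinker Flna, filamin A, at 273 ± 24.9 TPM, the tropomyosins Tpm3 and Tpm1 at 166 ± 42.1 and 156 ± 11.7 TPM, and Tagln2, transgelin 2, at 137 ± 27.3 TPM. The ranges of Cnn3 and Flna overlapped over the libraries, as did those of each following neighbour in the order down to Fhl1 at 133 ± 9.03 TPM, so their ranks are not settled, whereas the ranges of Actg1, Actb and Cnn3 did not overlap. Srf was at 26.8 ± 1.33 TPM, Mkl1 at 44.4 ± 2.27 TPM and Mkl2 at 7.53 ± 0.435 TPM. In all, 2 genes exceeded 1000 TPM, 8 lay from 100 to 1000, 10 from 10 to 100 and 10 from 1 to 10 TPM.

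Of the smooth muscle genes that are textbook MRTF targets, 3 were at the floor in these cells. Acta2, smooth muscle alpha-actin, had 0 to 5 estimated counts per library, Actg2, enteric gamma-actin, 0 to 4, and Cnn1, basic calponin, 0 to 4, where 3 counts correspond to 0.0891 to 0.127 CPM, so these genes were not tested and no fold is given. Tagln, SM22 alpha, was at 1.27 to 1.88 CPM and Myl9, a regulatory myosin light chain, at 1.66 to 2.76 CPM in the GFP-positive libraries. Acta1, skeletal alpha-actin, was at 0.713 to 1.20 CPM. The remaining 30 genes passed the filter on low counts.

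**Figure D1:**
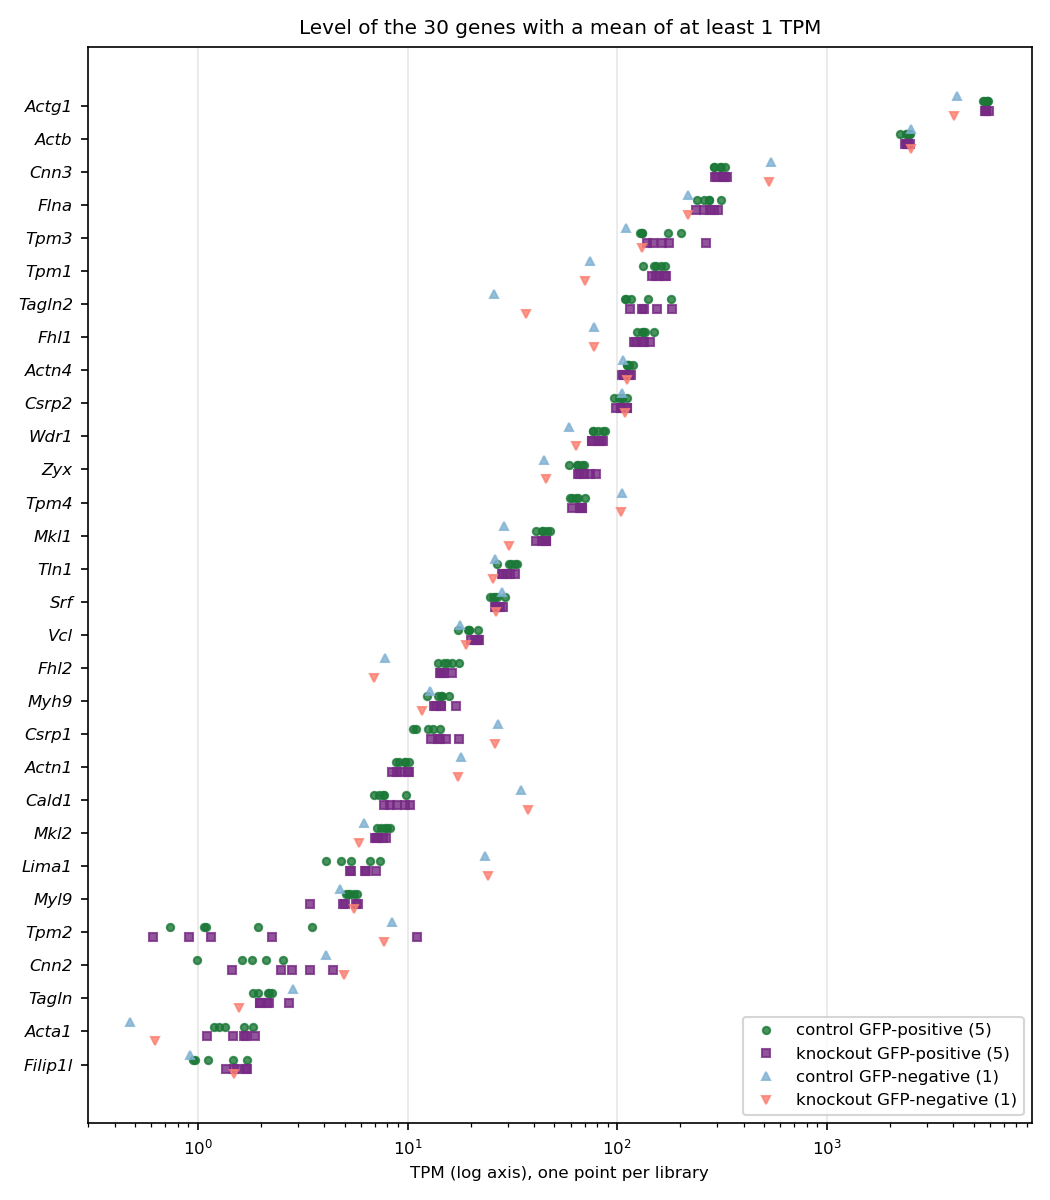
TPM on a log axis of the 30 genes with a mean of at least 1 TPM in GFP-positive cells, 1 point per library, circles and squares for the 5 control and 5 knockout GFP-positive libraries and triangles for the GFP-negative ones. Actg1 and Actb stand far above the rest, control and knockout points overlap in every gene, and the triangles of Tagln2, Tpm1, Cald1 and Lima1 lie apart from the circles and squares.

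The cytoplasmic pair carried nearly all the actin RNA and Cnn3 nearly all the calponin RNA, while Tpm3, Tpm1 and Tpm4 divided that of the tropomyosins, at means of 42.1%, 40.4% and 16.9% in GFP-positive libraries. Actg1 made up 70.5% ± 0.749 (SD, n = 5) of the summed Actb and Actg1 TPM in control and 70.4% ± 0.349 (n = 5) in knockout GFP-positive libraries, and the muscle actins together only 0.0197% ± 0.00368 and 0.0217% ± 0.00329 of the 5 actins. In the GFP-negative libraries Actg1 was 62.4% and 61.6%, below every GFP-positive library (69.5% to 71.3%). Cnn3 made up 99.4% ± 0.184 of the calponins in control and 99.0% ± 0.389 in knockout libraries. Among tropomyosins, proteins that wrap along actin filaments, Tpm1 held 33.6% to 46.5% in GFP-positive against 24.9% and 22.3% in GFP-negative libraries, and Tpm4 13.4% to 20.7% against 35.4% and 33.2%. Actn4 outweighed Actn1, the other non-muscle alpha-actinin, at 91.7% to 92.9% of the pair against 85.6% and 86.4%.

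The summed TPM of the families differed as well. The actins summed to 7749 to 8421 TPM in GFP-positive against 6722 and 6537 TPM in GFP-negative libraries, the calponins to 290 to 333 against 545 and 536 TPM, and the tropomyosins to 338 to 500 against 299 and 314 TPM. Between genotypes none of 8 paralogue shares passed an exact two-sided permutation test after Benjamini-Hochberg adjustment. The lowest exact p was 0.0794 (adjusted p = 0.476), for Csrp1, a LIM protein of actin filaments, in the sum of Csrp1 and Csrp2, with 10.6% ± 1.16 in control and 12.2% ± 1.23 in knockout libraries (n = 5 each). With 5 against 5 libraries the smallest exact p possible is 0.00794. That test did not use the pairing by replicate number. With signs flipped within pairs, the Cnn3 share, lower in knockout in 5 of 5 pairs, and the muscle actin share, higher in 5 of 5, reached the smallest exact p that 5 pairs allow, 0.0625 (adjusted p = 0.25 for both), and none of the 8 passed.

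Between GFP-positive and GFP-negative cells 19 of the 30 tested genes passed the threshold (edgeR quasi-likelihood test on 10 against 2 libraries with genotype as covariate, Benjamini-Hochberg adjusted p under 0.05 over all 19032 genes). That is 63.3%, beside 63.7% of all genes tested, so the share called was near that of the transcriptome. Of the 19, 11 were higher in GFP-positive cells (36.7%, beside 31.1% of all genes) and 8 were lower (26.7%, beside 32.6%), and the median log2 fold change was 0.066 beside 0.015 over all genes. A difference of at least 2-fold was called in 8 genes, 4 in each direction, which is 26.7% beside 23.1% of all genes. As these are bulk samples, fewer cells of a type and less RNA per cell cannot be told apart.

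Of the regulators, Srf did not pass the test. It was at 43.9, 47.3 and 51.9 CPM as lowest, median and highest of the 10 GFP-positive libraries and at 51.5 and 48.6 CPM in the control and knockout GFP-negative library, and the log2 fold change of -0.07 had a 95% interval of -0.19 to 0.06 (edgeR adjusted p = 0.342). Mkl1 was at 66.7, 73.4 and 77.2 CPM against 44.3 and 47.7 CPM, so that no GFP-positive library reached down to the GFP-negative ones. Its log2 fold change was 0.65 (SE 0.0559, edgeR adjusted p = 2.45e-07). Mkl2, its paralogue, was at 25.4, 26.6 and 28.7 against 22.1 and 21.7 CPM, also without overlap, and rose by 0.30 on the log2 scale (SE 0.056, edgeR adjusted p = 0.00036).

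Of the cytoplasmic actins 1 was called. Actg1 was at 4196, 4401 and 4629 CPM in GFP-positive against 3242 and 3134 CPM in GFP-negative libraries, a log2 fold change of 0.47 (SE 0.0405, edgeR adjusted p = 2.64e-07). Actb was at 1643, 1808 and 1879 against 1939 and 1893 CPM, so both GFP-negative libraries lay just above the highest GFP-positive one. Its log2 fold change of -0.09 (95% interval -0.18 to 0.01) missed the threshold (edgeR adjusted p = 0.0934), and with library size alone as scaling it was -0.14 and passed (edgeR adjusted p = 0.0107). Actg1 and Actb share 40.2% and 23.6% of their 31-base words with other annotated genes, and 3 copies of Actg1 that the table lists held at most 1.07 CPM each in GFP-positive libraries.

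The largest rise of the 30 was that of Tagln2, an actin-binding protein of the calponin family. It was at 62.7, 74.2 and 102 CPM (lowest, median and highest) in GFP-positive libraries and at 15.7 and 21.2 CPM in GFP-negative ones, without overlap, and the fold was 4.26 (log2 fold change 2.09, SE 0.235, edgeR adjusted p = 1.28e-05). Tpm1, at 122, 147 and 164 against 55.0 and 54.9 CPM, was 2.68-fold higher (log2 fold change 1.42, SE 0.0978). The muscle actin Acta1 was 2.75-fold higher (log2 fold change 1.46, SE 0.278), but from 0.713, 1.00 and 1.20 against 0.305 and 0.402 CPM, levels at which a GFP-negative library held few counts. The 4 genes called at least 2-fold higher end with Fhl2, a LIM-only coregulator that itself is an SRF target, at 9.52, 10.1 and 12 against 5.43 and 4.86 CPM, 2.03-fold higher (log2 fold change 1.02, SE 0.10). All 4 had groups that did not overlap, as did 19 of the 30 tested genes, 63.3%, beside 62.3% of all genes.

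Smaller rises were seen in adhesion and filament-turnover genes. Fhl1, the related LIM-only protein, was at 129, 144 and 163 CPM against 83.5 and 83 CPM (log2 fold change 0.80, SE 0.0803). Zyx, zyxin of focal adhesions and stress fibres, was at 66.5, 76.5 and 89.7 against 51.8 and 53.0 CPM (log2 fold change 0.55, SE 0.078). In both genes every GFP-positive library exceeded both GFP-negative ones. Wdr1, an actin-disassembly cofactor of cofilin, rose by 0.36 and Myh9, the heavy chain of non-muscle myosin IIA, by 0.23 on the log2 scale, the latter with overlapping groups.

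The largest fall of the 30 was that of Cald1, caldesmon, which binds actin, myosin and tropomyosin. It was at 9.11, 10.3 and 13.5 CPM in GFP-positive libraries against 58.0 and 55.0 CPM in GFP-negative ones, so the lowest GFP-negative value was several times the highest GFP-positive one, and the fold was 5.29 (log2 fold change -2.40, SE 0.102, edgeR adjusted p = 5.72e-10). Lima1, a LIM protein (EPLIN) that bundles and stabilises filaments, was at 7.16, 9.72 and 12.8 against 42.0 and 44.3 CPM, 4.48-fold lower (log2 fold change -2.16, SE 0.148). Cnn2, neutral calponin, was at 1.09, 1.74 and 3.49 against 3.77 and 5.04 CPM, a log2 fold change of -1.19 (SE 0.279, edgeR adjusted p = 0.00204). Within the knockout libraries alone Cnn2 had -1.09 and did not pass (edgeR adjusted p = 0.0672), a fit that lends the single GFP-negative library the spread of the GFP-positive ones. Csrp1, at 8.69, 10.8 and 14.0 against 21.9 and 21.2 CPM, was 2.01-fold lower (log2 fold change -1.01, SE 0.111).

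Of the 4 further genes called lower, Actn1 was at 13.3, 15.2 and 16.7 CPM against 29.7 and 29.0 CPM (log2 fold change -0.96). Cnn3, the abundant calponin, was at 251, 275 and 291 against 483 and 476 CPM (-0.82, SE 0.0507), and Tpm4 at 54.2, 59.9 and 63.8 against 99.6 and 99.3 CPM (-0.75, SE 0.0531). No group overlapped in these 3 genes. Cnn3 and Tpm4 share 32.0% and 20.0% of their 31-base words with other genes. Markers of other cells moved in the same direction as these falls: mesenchymal, meningeal and pericyte markers summed to 19.9 to 42.6 CPM in GFP-positive against 58.9 and 56.2 CPM in GFP-negative libraries (8 of 11 tested called lower, none of 11 higher, with Lum, Twist1, Twist2, Foxc1 and Foxc2 at 0 in some GFP-positive libraries), and erythroid markers to 6.03 to 48.6 against 211 and 295 CPM. Muscle markers summed to 5.23 to 10.7 against 94.9 and 94.5 CPM, but this was mostly Pax3, which dorsal neural cells also express. Pax3 alone was at 91.6 and 91.4 CPM in the GFP-negative libraries. Of 7 muscle markers tested 2 were called higher and 1 lower in GFP-positive cells, beside 31.1% and 32.6% of all genes. Their median log2 fold change was 0.48. The part of all these markers in the falls, and that of the progenitor markers, was not tested.

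**Figure D2:**
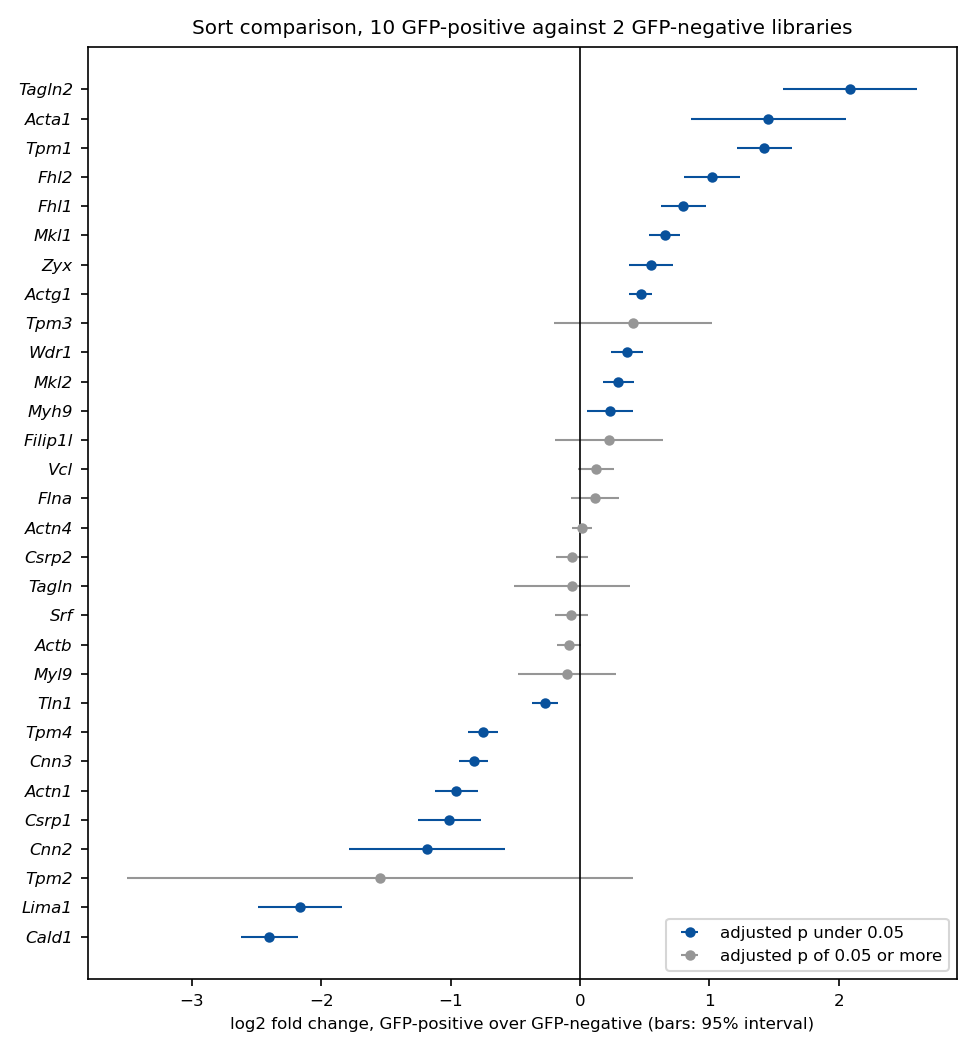
Log2 fold change, GFP-positive over GFP-negative, with 95% intervals for the 30 tested genes, from edgeR on 10 against 2 libraries, blue where the adjusted p is under 0.05. The blue points run from 2.09 for Tagln2 to -2.40 for Cald1, and Srf, Actb, Actn4, Csrp2, Vcl and Flna sit near 0 with narrow intervals.

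The 11 genes not called fell into those measured tightly and those measured poorly. Besides Srf and Actb, Actn4 had a log2 fold change of 0.02 (95% interval -0.06 to 0.09), Csrp2 -0.06 (-0.19 to 0.06), Vcl, vinculin of adhesion sites, 0.12 (-0.01 to 0.26) and Flna 0.12 (-0.07 to 0.30). In counts these intervals leave room for less than 1.3-fold, and the TPM of Flna, which differed, is given further on. Myl9, Tagln and Filip1l, all at about 1 to 3 CPM, had wider intervals, of which that of Tagln ran from -0.51 to 0.39. Tpm2, beta-tropomyosin, was at 0.274, 0.593 and 5.98 CPM in GFP-positive and at 3.80 and 3.03 CPM in GFP-negative libraries, and its interval of -3.50 to 0.41 was the widest of all. Tagln and Vcl share 62.2% and 25.3% of their 31-base words with other genes, Vcl all of it with its neighbour Ap3m1.

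Talin showed a direction that depended on the unit. Tln1, which links integrins to actin, was at 34.3, 37.2 and 39.6 CPM in GFP-positive against 44.5 and 45.2 CPM in GFP-negative libraries (log2 fold change -0.27, SE 0.0479, edgeR adjusted p = 0.000214), and within control libraries alone it was -0.22 and not called (edgeR adjusted p = 0.055, with the spread lent in the same way). In TPM it was higher instead, at 26.8 to 33.1 against 26.2 and 25.5 TPM, with a difference of 0.22 on the log2(TPM + 1) scale (limma adjusted p = 0.0185). The ratio of estimated count to TPM, taken relative to the median gene of each library, follows the mean length of the transcripts to which a gene's reads were assigned. For Tln1 it was 1.03 to 1.35 in GFP-positive and 1.52 and 1.58 in GFP-negative libraries, 0.721-fold, a shift larger than that of 99.8% of the 10611 genes at 5 TPM or more in every library.

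The same ratio differed in 3 more genes of the contractile and crosslinking machinery. Tpm1 was at 0.844 to 0.882 against 0.660 and 0.700 (1.26-fold), Cald1 at 1.10 to 1.22 against 1.48 and 1.31 (0.835-fold) and Flna at 1.34 to 1.45 against 1.53 and 1.59 (0.885-fold), in each case without overlap. In TPM the sort differences were smaller for both called genes, 1.10 for Tpm1 and -1.99 for Cald1 on the log2(TPM + 1) scale, and both passed (limma adjusted p = 1.04e-07 and 1.82e-08). Flna, not called in counts, was at 237 to 313 TPM in GFP-positive against 217 and 218 TPM in GFP-negative libraries. Its groups did not overlap in TPM, though they did in CPM. Of the 23 genes measured this way 3 shifted by more than 0.2 on the log2 scale, while 2.41% of all genes did. Srf and Actg1 stayed within 1.62 to 1.64 and within 0.690 to 0.709 over all 12 libraries.

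**Figure D3:**
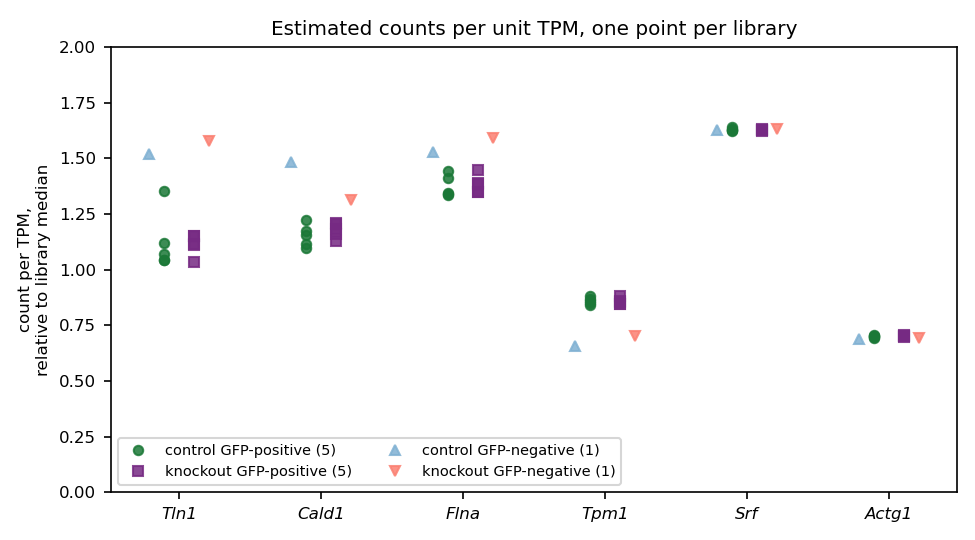
Estimated counts per TPM, relative to the median gene of each library, for 6 genes, 1 point per library. For Tln1, Cald1 and Flna the GFP-negative triangles lie above all GFP-positive points, for Tpm1 below them, and for Srf and Actg1 the 12 points coincide.

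Between knockout and control motor neurons none of the 30 tested genes passed the threshold (edgeR, 5 against 5 libraries, Benjamini-Hochberg over 17487 genes, every adjusted p = 0.9999), where 0.0343% of all genes, 6 in number, were called. At an unadjusted p under 0.05 there were 2 genes, 6.67%, beside 2.14% of all genes, both higher in knockout (DESeq2 and limma-voom also called none of the 30). The log2 fold change was above 0 in 23 of 30 genes, 76.7%, beside 48.9% of all genes, with a median of 0.037 beside -0.0016. In no gene did the 2 genotypes separate without overlap, which 0.538% of all genes did. The differences were small where they could be measured well: the 95% interval lay within 1.5-fold in 26 of 30 genes, 86.7%, beside 78.3% of all genes, and within 1.3-fold in 19.

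Fitted with replicate number as a block, which these numbers permit since same-numbered libraries deviated together, none of the 30 was called either (lowest edgeR adjusted p = 0.641, with 0.0286% of all genes called). The count at an unadjusted p under 0.05 became 6 of 30, 20.0%, beside 5.08% of all genes, and all 6 were higher in knockout. It was 5, 4, 4, 4 and 3 when pair 1, 2, 3, 4 or 5 was left out. The 6 were Zyx, Cnn2, Cald1, Vcl, Csrp1 and Filip1l.

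Cnn2, one of the genes with a CArG box shown above, had the largest of these differences. Over replicate numbers 1 to 5 it was at 2.19, 1.27, 1.09, 1.55 and 1.61 CPM in control and at 2.29, 2.89, 1.26, 1.87 and 3.49 CPM in knockout libraries. Each knockout library lay above the control of its number, by 0.06, 1.13, 0.20, 0.26 and 1.08 on the log2 scale, though the groups overlapped. The log2 fold change was 0.61 (SE 0.268, edgeR unadjusted p = 0.0429, adjusted p = 0.9999), and it was 0.42 without the knockout library of number 5.

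Csrp1 was at 10.5, 9.86, 8.69, 11.3 and 8.77 CPM in control and at 12, 10.4, 14.0, 11.2 and 11.1 CPM in knockout libraries. The paired differences were 0.20, 0.08, 0.68, -0.02 and 0.34, so pair 3 was the largest and pair 4 near 0. Its log2 fold change was 0.26 (SE 0.099, edgeR unadjusted p = 0.0235, adjusted p = 0.9999). Cald1 was at 9.24, 11.8, 9.11, 10.3 and 9.32 CPM in control and at 12.7, 13.5, 11.3, 10.1 and 10.2 CPM in knockout libraries, with paired differences of 0.45, 0.20, 0.30, -0.03 and 0.13. The groups of both genes overlapped, and Cald1's log2 fold change was 0.21 (SE 0.104, edgeR adjusted p = 0.9999).

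The adhesion genes Zyx and Vcl gave smaller differences. Zyx was at 66.5, 72.3, 79.8, 72.9 and 76.8 CPM in control and at 72.9, 76.2, 84.0, 76.9 and 89.7 CPM in knockout libraries, and all 5 pairs were higher in knockout, by 0.07 to 0.22. Vcl was at 44.1, 39.5, 45.5, 44.9 and 49.4 CPM in control and at 48.2, 46.1, 50.0, 48.6 and 47.6 CPM in knockout libraries, higher in 4 pairs by 0.12 to 0.22 and lower by 0.05 in pair 5. Their log2 fold changes were 0.12 (SE 0.0634) and 0.11 (SE 0.0541), and the highest control library exceeded the lowest knockout library in both. Without the knockout library of number 5 that of Zyx was 0.073, and without the control library of number 2 that of Vcl was 0.067. Filip1l, a filamin A-interacting protein, was at 1.36, 2.08, 1.26, 1.46 and 1.69 CPM in control and at 1.73, 2.19, 2.00, 1.84 and 2.05 CPM in knockout libraries, higher in 5 of 5 pairs by 0.07 to 0.64 (log2 fold change 0.32, SE 0.160).

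For the regulators and cytoplasmic actins the estimates lay near 0. Srf was at 43.9 to 51.9 CPM in control and 47.2 to 51.1 CPM in knockout libraries, a log2 fold change of 0.03 (95% interval -0.08 to 0.14). Mkl1 had 0.02 (-0.08 to 0.12), Actb 0.01 (-0.07 to 0.09) and Actg1 0.01 (-0.07 to 0.08), intervals that exclude a change of 1.3-fold. Mkl2 was lower in knockout in 5 of 5 pairs, by 0.02 to 0.17, with a log2 fold change of -0.07 (95% interval -0.17 to 0.03), and it was the only one of the 30 lower in every pair, where 3.61% of all genes were.

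Counted by pair, 13 of 30 genes were higher in knockout in at least 4 of 5 pairs, 43.3%, beside 19.6% of all genes, and 3 in all 5 (Cnn2, Zyx and Filip1l), where 3.13% of all genes were. The pairs were unequal. In pair 2, 24 of 30 genes were higher in knockout with a median difference of 0.085 on the log2 scale, in pairs 1, 3, 4 and 5 it was 14, 16, 18 and 19 genes with medians of -0.025, 0.025, 0.017 and 0.024. Without the control library of pair 2 the median log2 fold change over the 30 genes was 0.0075, with 19 above 0, and without its knockout library 0.035, with 21 above 0. Without knockout library 3, 4 or 5 the median was 0.013, 0.020 and 0.019. In the blocked fit, leaving out the whole of pair 2 left 16 of 30 genes above 0, with a median of 0.013. That stood beside 48.9% of all genes above 0 in the main fit. Leaving out pair 1, 3, 4 or 5 instead left 23 of 30 above 0, with medians of 0.046, 0.025, 0.023 and 0.041.

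**Figure D4:**
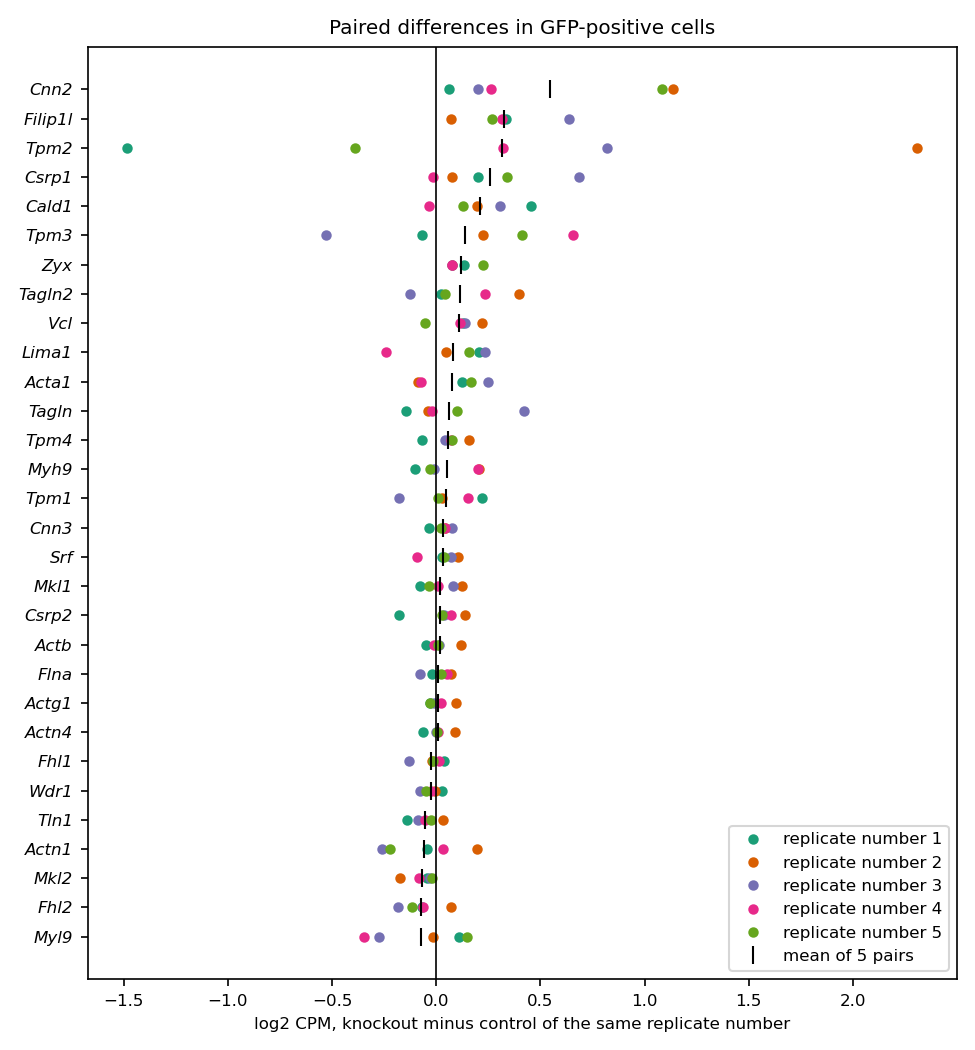
Knockout minus control difference in log2 CPM of each replicate number, 30 tested genes ordered by the mean of 5 pairs (vertical marks). Cnn2, Filip1l and Zyx lie wholly to the right of 0 and Mkl2 wholly to the left, Tpm2, Cnn2 and Tpm3 scatter most, and Actb, Actg1, Srf and Mkl1 lie close to 0.

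Markers of other cells also ran higher in some knockout libraries, most in that of number 2. Endothelial markers summed to 3.01 to 7.32 CPM in control and 3.89 to 17.8 CPM in knockout libraries, mesenchymal, meningeal and pericyte markers to 19.9 to 30.2 against 21.4 to 42.6 CPM, and erythroid markers to 6.40 to 20.4 against 6.03 to 48.6 CPM, with that library the highest of the 10 in all 3 lists. All 7 tested endothelial markers had a log2 fold change above 0 in knockout, with a median of 0.61 and none called. At an unadjusted p under 0.05 (edgeR) there was 1 of the 7, beside 2.14% of all genes. With the replicate block there were 4 of the 7, all higher in knockout, beside 5.08% of all genes. Knockout library 5 came second in the endothelial and erythroid lists, at 9.65 and 28.3 CPM. Knockout library 3 came second in the mesenchymal list, at 31.7 CPM. Each of these sums lay above every control library. Of the mesenchymal sums, Rgs5 alone was 13.6 to 19.0 CPM in control and 11.8 to 24.2 CPM in knockout libraries. The knockout library of number 2 held 5.98 CPM of Tpm2, against 0.274 to 1.02 CPM in the other knockout libraries. The part of these cells in the differences was not tested, and without that library the count at an unadjusted p under 0.05 was 1 of 30 and the log2 fold change of Cald1 was 0.15 in place of 0.21. Leaving out control 3, 4 or 5 or knockout 3 also gave 1.

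The knockout effect in GFP-negative cells rests on 1 library per genotype, each assumed to vary like the GFP-positive libraries, whose spread the test uses. Tested against the effect in GFP-positive cells, none of the 30 genes passed (edgeR interaction, Benjamini-Hochberg over 19032 genes, of which 0.0263% were called), and 1 had an unadjusted p under 0.05, beside 1.73% of all genes. It was Tagln, at 2.00 CPM (control) and 1.10 CPM (knockout) in GFP-negative cells against 1.44 ± 0.108 and 1.51 ± 0.215 CPM (SD, n = 5) in control and knockout GFP-positive libraries, a difference of log2 fold changes of -0.94 (edgeR adjusted p = 1.0). Csrp1 and Cald1, which come next by p, had -0.30 and -0.29 (edgeR adjusted p = 1.0 for both). Their GFP-negative values were 21.9 and 21.2 CPM and 58.0 and 55.0 CPM, control first.

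Tpm3 could be read only together with its near-identical copy. The table lists Tpm3-rs7 separately, and 26.9% of the 31-base words of Tpm3 occur in it. Over replicate numbers 1 to 5, Tpm3 was at 114, 114, 186, 147 and 112 CPM in control and at 109, 133, 129, 231 and 149.7 CPM in knockout libraries. Tpm3-rs7 was at 120.4, 96.8, 51.7, 75.7 and 119 CPM and at 114, 94.8, 105, 1.44 and 82.6 CPM, high where Tpm3 was low. The knockout library of number 4, with the most Tpm3, held almost none of the copy.

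Summed, the 2 entries gave 235, 211, 238, 222 and 232 CPM in control, 223, 228, 235, 232 and 232 CPM in knockout, and 227 and 231 CPM in GFP-negative libraries. The coefficient of variation over the 10 GFP-positive libraries was 27.3% for Tpm3 alone and 3.54% for the sum. In the knockout comparison the log2 fold change was 0.16 (SE 0.228) for Tpm3 alone and 0.02 (95% interval -0.06 to 0.09) for the sum, and in the sort comparison 0.41 (SE 0.273) and 0.00047 (95% interval -0.09 to 0.09), the sum having been chosen after the values were seen. Neither reading was called (edgeR adjusted p of at least 0.217). All tropomyosin shares and the summed tropomyosin TPM given above carry the same uncertainty, since Tpm3-rs7 was not part of the sum. So does the place of Tpm3 in the order of levels. The highest tropomyosin sum, 500 TPM, was that of knockout library 4, where Tpm3 was at 264 TPM.

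**Figure D5:**
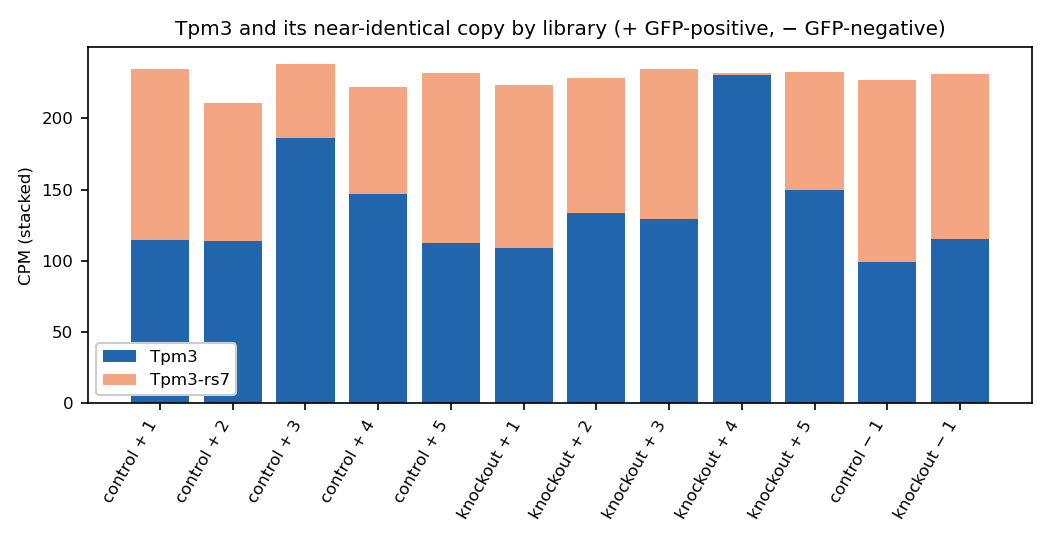
CPM of Tpm3 (blue) and Tpm3-rs7 (orange), stacked, in each of the 12 libraries. The division between the colours varies widely, with Tpm3-rs7 from 1.44 to 127 CPM, while the tops of the bars stay between 211 and 238 CPM.

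The tested genes were also counted by whether their window held a CArG box. Of 10 tested genes with a box 4 were higher and 2 lower in GFP-positive cells, with a median log2 fold change of 0.17. Of 17 with a window and no box 7 were higher and 6 lower, with a median of 0.12. Of all genes tested 31.1% were higher and 32.6% lower. In knockout the medians were 0.044 and 0.042, with 7 of 10 and 13 of 17 genes above 0, beside 48.9% of all genes. Outside the 33 genes a box was found in Actc1 and Myl6 of 20 further MRTF targets with a window, in Egr2 of 8 TCF targets and in Arpc4 of 22 turnover genes.

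The rest of the pathway was read from 3 lists. Of 22 genes of actin monomer and filament turnover, 14 were higher and 3 lower in GFP-positive cells, beside 31.1% and 32.6% of all genes. The filament-severing Gsn, gelsolin, was at 29.4 ± 3.01 CPM against 5.23 and 5.30 CPM (log2 fold change 2.48), the cofilin phosphatase Ssh3 at 35.4 ± 2.98 against 8.21 and 8.69 CPM (2.06) and the monomer-binding Tmsb10 at 731 ± 37.9 against 421 and 398 CPM (0.84). The capping protein Capza1, the monomer-binding profilin Pfn1 and Cap2 fell by 0.29, 0.29 and 0.49. Between genotypes none was called, and all 22 log2 fold changes lay from -0.06 to 0.035.

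Of 26 further MRTF targets 24 were tested in the sort comparison, 8 higher and 10 lower, beside 31.1% and 32.6% of all genes. Itgb1, the beta-1 integrin, rose by 0.88, Myl6, an essential myosin light chain, by 0.65 and Tuft1 by 1.12, while Cyr61 and Ctgf, secreted matricellular proteins, fell by 2.46 and 2.51 and Myl12a, a regulatory light chain, by 1.27 on the log2 scale. Ctgf was near the floor, at 0.212 to 0.445 CPM in GFP-positive against 1.70 and 2.08 CPM in GFP-negative libraries. In the knockout comparison 0 of 20 tested were called, 16 were above 0, beside 48.9% of all genes, and the median was 0.052 beside -0.0016 over all genes. With the replicate block 2 of the 20 had an unadjusted p under 0.05, beside 5.08% of all genes, both higher in knockout.

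The immediate early genes that SRF serves with TCFs had lower estimates in knockout, none of which passed the test. Of 12 listed, 10 were tested and 0 called, 0 of 10 had a log2 fold change above 0, beside 48.9% of all genes, and the median was -0.23. With the replicate block 5 of the 10 had an unadjusted p under 0.05, beside 5.08% of all genes, all lower in knockout, and still 0 were called (lowest edgeR adjusted p = 0.541). Fos was at 15.1, 52.8, 36.1, 27.0 and 53.6 CPM in control and at 13.2, 28.8, 29.4, 18.6 and 35.7 CPM in knockout libraries, lower in 5 of 5 pairs although the groups overlapped widely, with the libraries of number 1 the lowest of both. Its log2 fold change was -0.55, and Dusp1 and Nr4a1, a phosphatase and a nuclear receptor induced with it, had -0.15 and -0.16, both lower in 5 of 5 pairs. Fosb and Egr3, named after their values were seen as the other 2 of the 5, had -1.03 and -0.56. In pair 1 Fosb was higher in knockout, at 2.40 against 2.19 CPM, and it was lower in the others. Egr3 was at 0.298 to 1.23 CPM in control and 0.118 to 1.06 CPM in knockout libraries, with its lowest value at the floor of 3 counts.

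Immediate early RNA also differed by sort, with 7 of 10 genes higher and 2 lower in GFP-positive cells, beside 31.1% and 32.6% of all genes. Fos was at 7.63 and 9.77 CPM in the GFP-negative libraries, a log2 fold change of 1.82 (SE 0.537), and Nr4a1 and Dusp1 rose by 0.76 and 0.55, while Ier2 and Mcl1 fell by 0.47 and 0.23. Interneuron markers had estimates of the same sign in the knockout comparison, with 0 of 10 above 0 and a median of -0.43, none called. With the replicate block 5 of the 10 had an unadjusted p under 0.05 (edgeR), beside 5.08% of all genes, all 5 lower in knockout. Lower in 5 of 5 pairs were 3 of the 10, beside 3.61% of all genes. The sum of these markers ran from 71.6 to 280.0 CPM in control and from 80.1 to 206 CPM in knockout libraries. The part of interneuron markers in the result was not tested.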

How the data were processed

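The tables hold estimated counts and TPM per gene symbol, which the authors deposited for 12 single-end libraries (50 bp) made from polyadenylated RNA. They were obtained with kallisto and build mm10, per the submitters' processing notes, and nothing in the labels says how transcripts became symbols. The deposited TPM columns sum to slightly different totals. Estimated counts were rounded and tested with edgeR 4.0.16 (robust quasi-likelihood F-test, filterByExpr, TMM, Benjamini-Hochberg threshold 0.05) over all genes that passed the filter. CPM uses TMM-scaled library sizes, and the log2 differences by pair a prior count of 2. Replicate numbers were shared between genotypes. Deviations from the group means correlated within numbers 1 to 5 at r = 0.518, 0.445, 0.329, 0.270 and 0.410 (highest other pair 0.120). The numbers were therefore taken to pair the libraries in the differences by pair and in the blocked fit. The main knockout test held genotype only, so its p-values, SEs and intervals did not use the pairing. Paralogue shares of TPM were compared by exact permutation. Alternatives used DESeq2 1.42.0, limma 3.58.1, other scalings and filters, TPM with a pseudocount of 1 or 0.1, and each library left out. Scripts were tested on simulated data. Depth was 23.7 to 33.8 M counts, and 3 counts were taken as the floor. Promoter windows and coordinates are GRCm38.p6, gene annotation is GENCODE M21, and Mkl1 and Mkl2 were matched there as Mrtfa and Mrtfb. Words of 31 bases shared with other genes' transcripts were counted in the same annotation.

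The 33 genes, the pathway and marker lists and the rule for genes given with full values were chosen with earlier results of these data known. That rule took the 6 genes with the smallest p between genotypes, up to 8 called genes per direction in the sort comparison with Srf, Mkl1, Mkl2, Actb and Actg1 always included, the 3 smallest p of the interaction, and up to 3 called genes per direction of each pathway list. Sequences were taken from up to 6 genes with a box, called genes first, and the Srf stretch was added. Actin protein sequences were not analysed here. The sensory neuron list, which shares Isl1 with motor neurons, summed to 286 to 385 CPM in GFP-positive and to 218 and 193 CPM in GFP-negative libraries. A further list of pathway genes is not reported here.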

Additional observations from a re-analysis of the deposited data

Results flagged for a closer look

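Of 82 groups of 5 libraries examined, 6 held a library far from the other 4, and chance gives about 1 in 20. In the knockout GFP-positive group, Tpm2 stood at 5.985 CPM in replicate 2 against 0.2738 to 1.02 CPM in the others, and Actn4 at 122.0 CPM in the same library against 112.4 to 115.2 CPM. Mkl1 was at 66.66 CPM in knockout replicate 1 against 73.6 to 75.33 CPM, Tagln at 1.877 CPM in knockout replicate 3 against 1.34 to 1.486 CPM, and Fhl2 at 11.09 CPM in knockout replicate 5 against 9.697 to 10.04 CPM. In control cells Actn4 was at 117.5 CPM in replicate 1 against 113.8 to 114.8 CPM. The gap was many-fold for Tpm2 alone.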

How the results depend on the processing

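Of 924 alternative values 880 were the same as the main result and 12 reversed. For an effect, same means that direction and side of the threshold were kept. For a count, it means a value equal to the main count or within 1.5-fold of it. No gene of the 33 was called between genotypes, or in the interaction, under any alternative run, and 17 to 20 were called in the sort comparison (18 to 20 with a library left out). The number at an unadjusted p under 0.05 between genotypes, 2, was 6 with the replicate block, 1 with log2(TPM + 1) and 1 with log2(TPM + 0.1), and 1 to 3 with a library left out. With a pair left out of the blocked fit, added after seeing the data, it was 5 for pair 1, 4 for pairs 2, 3 and 4, and 3 for pair 5. The block changed no other call of the 33 genes between genotypes. Tln1 reversed between sorts to 0.2237 with log2(TPM + 1) and 0.2308 with log2(TPM + 0.1). Differences in paralogue share, none called, reversed for Actn4 to 0.486 percentage points in estimated counts, and with a library left out ran from -0.2279 to 0.0611 for Actn4, -0.3061 to 0.1442 for Actg1, -0.0397 to 0.2367 for Tagln2 and -0.1128 to 3.925 for Tpm3. With 1 mismatch 17 promoters matched. Without a filter on low counts the sort median over all genes moved from 0.015 to 0.136 on the log2 scale, and other scalings moved it by less than 0.1. Arhgap35 itself lost its call with 9 of the 10 GFP-positive libraries left out in turn, at -0.87 to -0.77, with the replicate block (edgeR adjusted p = 0.162), without a filter (0.0717), with log2(TPM + 0.1) (limma, 0.0517) and in the blocked fit without pair 1, 3, 4 or 5 (0.441, 0.553, 0.658 and 0.108). Causes of these changes were not tested. Genes near 1 CPM, and the lone GFP-negative library per genotype, limit what could be detected.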
